A study of Equus caballus with 21 samples.

Results

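Of the 24942 genes counted in day 12 endometrium of the horse, 7 that handle lipids form the subject here: GM2A, LIPG, VNN2, PLA2G2C, ELOVL3, ABCA8 and ABCA9. They were chosen by name, from readouts of these same libraries that had shown each of them concentrated in one tissue compartment. Their compartment levels are therefore given as a description, without a test. All 7 were found in the count table.

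Endometrial biopsies of warmblood mares were frozen and sectioned, and areas of stroma, of glandular and of luminal epithelium were isolated by laser capture microdissection, which cuts chosen areas from a stained section. RNA from these captures was amplified and sequenced in 21 libraries. Cyclic libraries came from day 12 of an estrous cycle without insemination. Pregnant libraries came from day 12 after insemination. Every mare had received human choriogonadotropin to induce ovulation, in control and pregnancy cycles alike, and prostaglandin F2 alpha was given on day 12. The luminal epithelium gave 5 cyclic libraries (mares B, C, J, M and U) and 4 pregnant ones (B, C, M and U). The glandular epithelium gave 4 and 4 (B, C, M and U), and the stroma gave 2 cyclic (B and M) and 2 pregnant (M and U). Most mares were thus sampled in both states, and the sample labels name 5 mares where the design text counts 6. Each library is bulk RNA from captured tissue, so fewer cells of a type and less RNA per cell cannot be told apart in any value below.

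Totals ran from 136259 to 1467510 counts per library, and pregnant luminal libraries were among the shallowest, at 136259 to 440188. Summed over the 5 of 7 epithelial markers found in the file, the luminal and glandular libraries held 592 to 9840 CPM (counts scaled to a common library size) and the stromal libraries 85.8 to 942. Summed over the 6 of 7 fibroblast markers found, the stromal libraries held 5237 to 12771 CPM, the glandular ones 352 to 1199 and the luminal ones 756 to 7232. The top luminal value belonged to the pregnant library of mare M, which lay above the lowest stromal library. Levels below, other than those of cell type markers, are CPM of the TMM-scaled library size. They are comparable between libraries for one gene but not between genes, since transcript length was not taken into account. Marker levels, single or summed, are CPM without TMM scaling and with ribosomal RNA counts left out.

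Before implantation the equine conceptus lives on uterine secretions and on what crosses the luminal epithelium, and lipids and their carriers are part of that supply. The genes described here act at different points of lipid handling. GM2A encodes the lysosomal cofactor that presents ganglioside GM2 for cleavage, LIPG encodes endothelial lipase, a secreted phospholipase that acts on lipoproteins, and VNN2 encodes a vanin, an enzyme that splits pantetheine into cysteamine and pantothenate, the vitamin from which coenzyme A is made. PLA2G2C encodes a secreted phospholipase A2, ELOVL3 an elongase of saturated and monounsaturated very long chain fatty acids, and ABCA8 and ABCA9 are membrane transporters of the ABCA subfamily, of which ABCA8 is known for cholesterol efflux.

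By mean CPM, GM2A, LIPG and VNN2 were highest in luminal epithelium, PLA2G2C and ELOVL3 in glandular epithelium, and ABCA8 and ABCA9 in stroma.

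**Figure D1:**
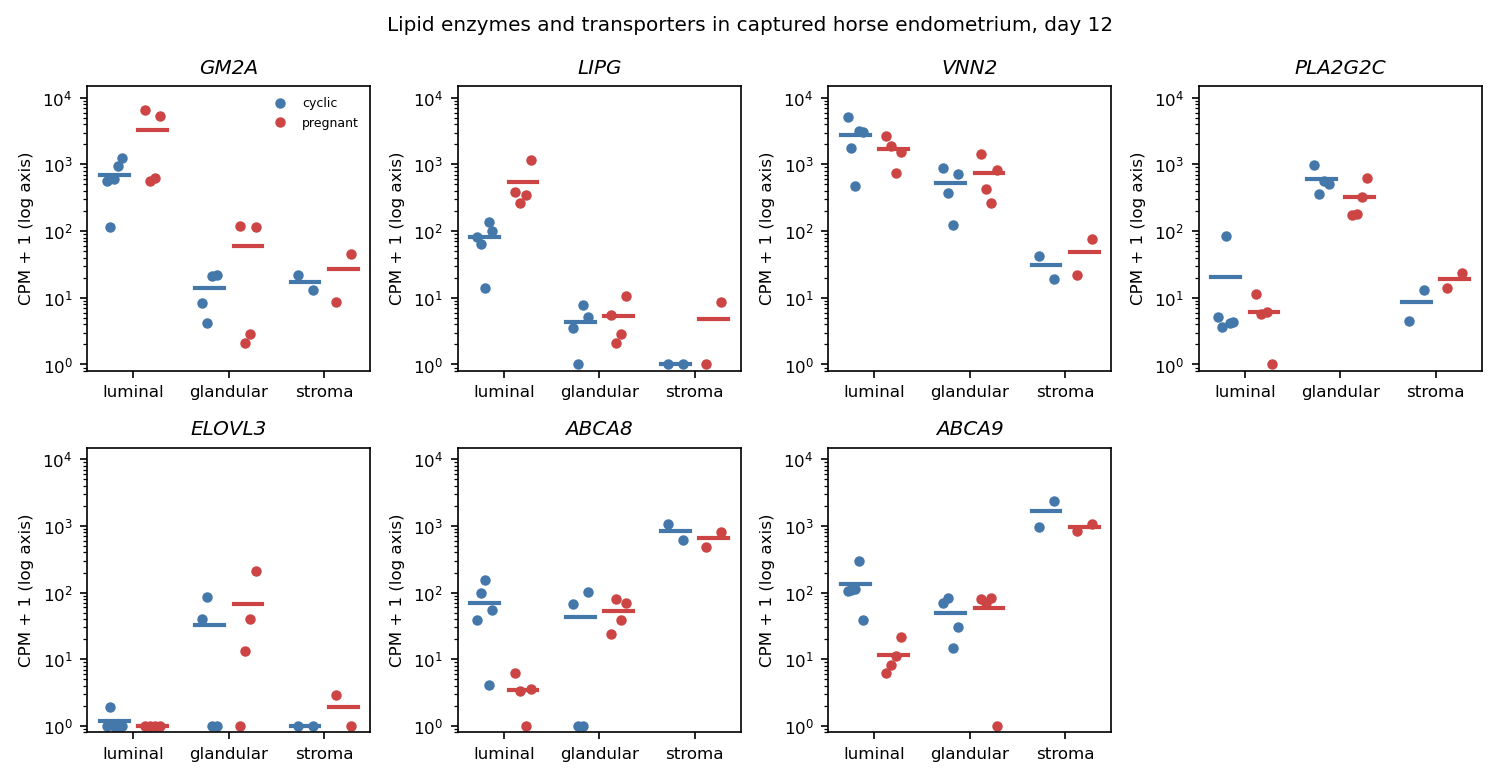
CPM of the 7 genes in each of 21 libraries, plotted as CPM + 1 on a log axis against compartment; blue points are cyclic libraries, red points pregnant ones, and bars are group means. GM2A and LIPG sit high in luminal epithelium only, VNN2 is also present in glands, ELOVL3 appears in 5 of 8 glandular libraries, and ABCA8 and ABCA9 reach 484 CPM or more in every stromal library.

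GM2A was a luminal transcript in every biopsy. Cyclic luminal libraries held 560.3 (mare B), 115 (C), 608 (J), 947 (M) and 1237 (U) CPM. Pregnant ones held 6641 (B), 564 (C), 618 (M) and 5393 (U) CPM. Thus 2 pregnant libraries stood well above every cyclic one, while the other 2 lay inside the cyclic range. In glandular libraries the level ran from 1.13 to 116 CPM with a median of 13.9, and in stromal ones from 7.53 to 45.1 CPM. Mean luminal CPM was 1854 ± 2400 (SD, n = 9), against 35.6 ± 49.5 (SD, n = 8) in glands and 21.4 ± 16.7 (SD, n = 4) in stroma, ratios of 52.1 and 86.7. The lowest luminal library, cyclic mare C, overlapped the highest glandular library, pregnant mare B, yet within each of 8 biopsies luminal exceeded glandular epithelium. The glandular level was 0.201% to 2.73% of the luminal level of the same biopsy. The 2 glandular libraries above 100 CPM came from mares B and U in pregnancy, the same biopsies whose luminal libraries were highest.

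GM2A was called higher in pregnant than in cyclic luminal epithelium, a call that was lost in 10 of 19 alternative fits. The log2 fold change was 2.30 ± 0.56 (SE), with a Benjamini-Hochberg adjusted p of 0.0221 in edgeR's quasi-likelihood test. Of 4344 genes tested in this comparison 0.437% were called, and GM2A was the 1 called gene of 5 members tested, since PLA2G2C and ELOVL3 did not pass the low-count filter in luminal epithelium. The pregnant library exceeded the cyclic one in 3 of 4 mares. Its ratio was 11.9 in mare B (95% exact counting interval 10.5 to 13.5), 4.92 in mare C (3.95 to 6.14) and 4.36 in mare U (4.01 to 4.74). In mare M the pregnant library was the lower one, with a ratio of 0.653 (0.524 to 0.809). That library was also the shallowest of all and held the highest fibroblast marker sum among epithelial libraries, whose part in its GM2A level was not tested. These intervals cover counting error only. They may be too narrow even for that, because amplified reads that carry no molecular identifiers may stem from the same molecule. With mare as a block, and mare J left out for want of a pregnant library, the fold change was 1.96 with an adjusted p of 0.158. The call was also lost without the cyclic library of mare B, C or M (adjusted p 0.0708, 0.0888 and 0.126) or the pregnant library of B or U (0.308 and 0.104), and with DESeq2 (0.0797), while leaving out pregnant mare M gave an adjusted p of 4.47e-05.

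LIPG had few counts outside luminal epithelium. Cyclic luminal libraries held 80.9 (B), 63.6 (C), 13.0 (J), 138 (M) and 101 (U) CPM. Pregnant luminal libraries held 384 (B), 259 (C), 345 (M) and 1166 (U) CPM. All 4 pregnant libraries lay above all 5 cyclic ones, with mare U highest and cyclic mare J lowest. In glands LIPG was at 0 to 9.65 CPM, from 15 counts over 8 libraries, and in stroma at 0 in 3 libraries and 7.51 CPM in pregnant mare U, which rested on 2 counts. The luminal to glandular ratio of means was 73.8. Against stroma the ratio of pooled counts was 140.5, with a 95% exact counting interval of 38.8 to 1162. The sum of 7 endothelial markers was 109 to 1154 CPM in stroma, where LIPG had 2 counts, and 3.05 to 142 CPM in luminal epithelium. The part of captured endothelial cells in the LIPG level was not tested.

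For LIPG the log2 fold change in luminal epithelium was 2.80 ± 0.83 (SE), and the adjusted p of 0.103 by edgeR's quasi-likelihood test did not pass the threshold of 0.05. Its unadjusted p was under 0.05, which 339 of 4344 genes reached. The pregnant level was above the cyclic level in 4 of 4 mares, by ratios of 4.75 (B), 4.08 (C), 2.51 (M) and 11.6 (U). Ranges that do not overlap between states were found for 4.81% of the genes tested in luminal epithelium, and LIPG and ABCA9 were the members among them. DESeq2 called LIPG (adjusted p 0.00995), as did the quasi-likelihood test once pregnant mare M was left out (0.0324), and with mare as a block the fold change was 2.32 with an adjusted p of 0.428.

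**Figure D2:**
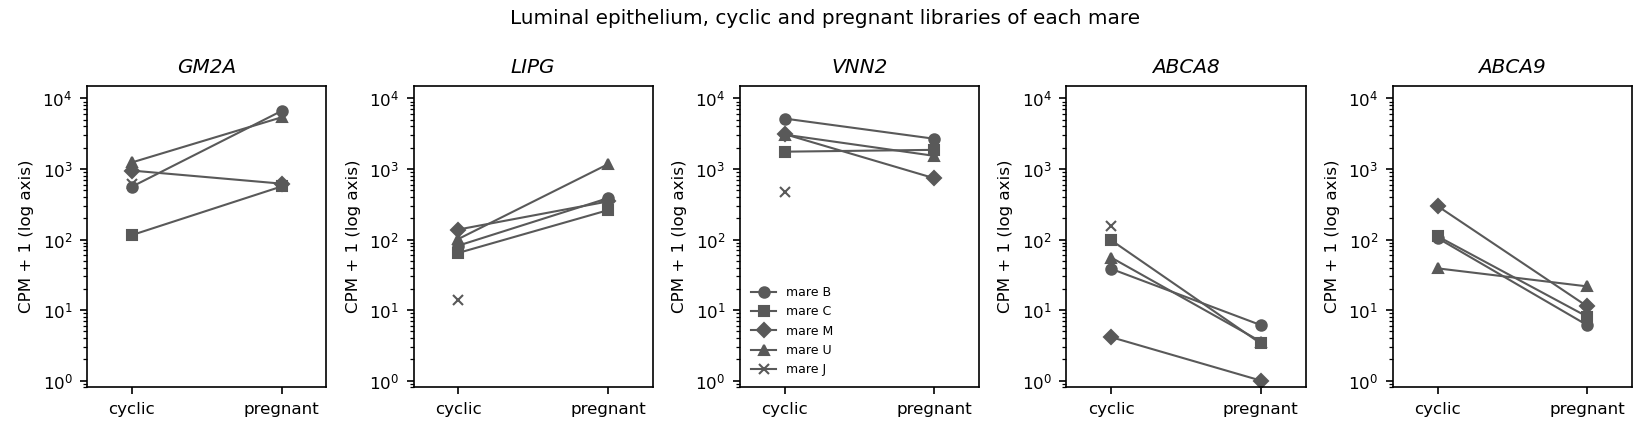
CPM + 1 (log axis) of 5 genes in luminal epithelium, with a line joining the cyclic and pregnant library of each of 4 mares and a cross for mare J, which has a cyclic library only. LIPG lines go up in 4 of 4 mares and ABCA9 lines down in 4 of 4, while GM2A goes up in 3 and down in mare M.

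VNN2 was the one luminal gene that was also well represented in glands. Cyclic luminal libraries held 5177 (B), 1757 (C), 469.8 (J), 3117 (M) and 3064 (U) CPM, and pregnant ones 2678 (B), 1865 (C), 737 (M) and 1533 (U) CPM. Glandular libraries held 884 (B), 372 (C), 123 (M) and 713 (U) CPM in the cycle and 1443 (B), 429 (C), 261 (M) and 818 (U) CPM in pregnancy. The luminal and glandular ranges overlapped, but luminal epithelium was higher in 8 of 8 biopsies. The luminal mean was 2266 ± 1437 (SD, n = 9) CPM and the glandular mean 630.5 ± 425.5 (SD, n = 8) CPM, a ratio of 3.59. Stroma held 18.0 to 75.1 CPM, and the luminal mean was 58.2 times and the glandular mean 16.2 times the stromal mean of 38.9 ± 26.4 (SD, n = 4) CPM. VNN2 is known from neutrophils in other species, and 7 neutrophil markers summed to 0 to 15.3 CPM in luminal epithelium, 0 to 0.815 CPM in glands and 0 in stroma. CSF3R, S100A8, S100A9, S100A12, MPO and LTF had no count in any of the 21 libraries. CXCR2 had 13 counts in 2 cyclic luminal libraries and 1 count in pregnant glands. With so few counts in any compartment the list says little about captured neutrophils, whose part in the VNN2 level was not tested.

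In luminal epithelium the VNN2 log2 fold change was -0.65 ± 0.54 (SE) with an adjusted p of 0.915 by edgeR's quasi-likelihood test. The pregnant level was below the cyclic one in mares B, M and U and slightly above it in mare C, where the ratio was 1.06 with a counting interval of 0.976 to 1.15. The glandular level stood at 3.94% to 23.3% of the luminal level of the same biopsy in the cycle and at 23.0% to 53.9% in pregnancy.

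The enzymes and carriers around these luminal genes did not share one compartment. HEXA, whose product acts on ganglioside GM2 in the lysosome, held 0 to 177 CPM in luminal, 0 to 134 CPM in glandular and 0 to 92.3 CPM in stromal libraries. Its ranges overlapped between luminal and glandular epithelium, where its log2 difference was 0.80 ± 1.49 (SE), with an adjusted p of 0.929 by edgeR's quasi-likelihood test over mares B, C, M and U. SLC5A6, the sodium-dependent carrier of pantothenate and biotin, was higher in luminal epithelium by 2.71 ± 0.70 (SE), with an adjusted p of 0.00324 by the same test. Its ranges overlapped, at 5.15 to 535 CPM in luminal and 6.82 to 103 CPM in glandular libraries. Glands held more SLC5A6 in cyclic mare C (103 against 91.3 CPM) and in pregnant mare M (37.6 against 5.15 CPM). The sister enzyme VNN1 was lower in luminal epithelium by a log2 difference of -2.05 ± 0.57 (SE), adjusted p 0.00718 by that test. The SLC5A6 call was lost without mare B (adjusted p 0.205) and with libraries not summed and the biopsy as a block (0.137), and the VNN1 call without mare B, C or U (0.0685, 0.0586 and 0.0796) and without the mare block (0.217).

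**Figure D3:**
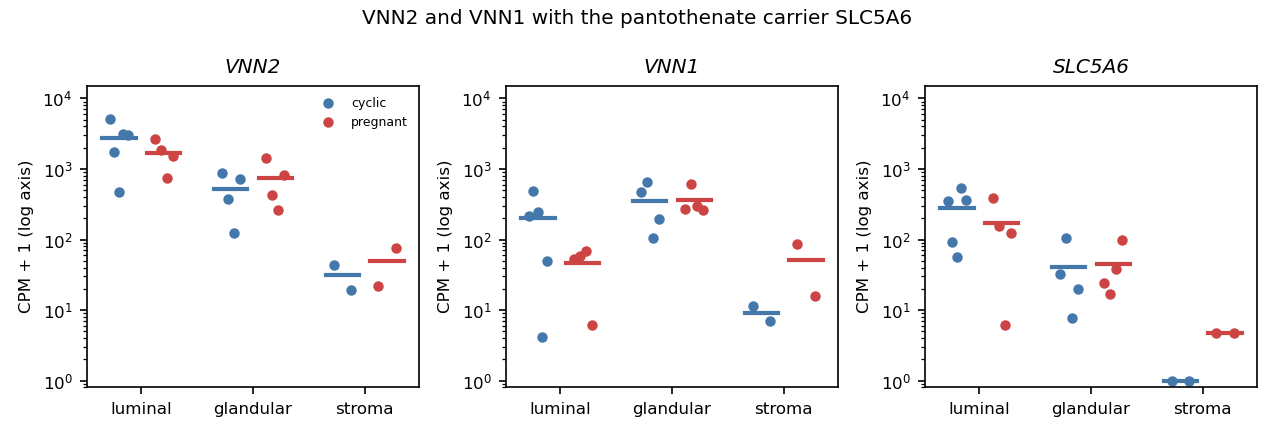
CPM + 1 (log axis) by compartment for VNN2, VNN1 and SLC5A6; blue points are cyclic libraries, red points pregnant ones, bars group means. By group mean, VNN2 and SLC5A6 are higher in luminal epithelium and VNN1 in glands.

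PLA2G2C was a gland transcript. Cyclic glandular libraries held 987 (B), 363 (C), 566 (M) and 502 (U) CPM. Pregnant ones held 173 (B), 181 (C), 322 (M) and 630.0 (U) CPM, so that 3 of 4 pregnant libraries lay below all cyclic ones and mare U lay among them. Luminal libraries held 0 to 10.2 CPM except cyclic mare J, at 83.9 CPM from 45 counts, and stromal libraries held 3.49 to 22.5 CPM. The glandular mean was 465.4 ± 269.4 (SD, n = 8) CPM, 35.7 times the luminal mean of 13.0 ± 26.7 (SD, n = 9) CPM and 36.4 times the stromal mean of 12.8 ± 7.80 (SD, n = 4) CPM. Glands were higher than luminal epithelium in 8 of 8 biopsies, and the ranges did not overlap.

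ELOVL3 was present in some glandular libraries and at 0 in others. Cyclic glands held 38.7 (B), 86.0 (C), 0 (M) and 0 (U) CPM, and pregnant glands 0 (B), 12.5 (C), 39.5 (M) and 210.0 (U) CPM. Mares B, M and U each had one library with a count of 0 and one with 21 to 87 counts, so no mare apart from C was positive in both states. A count of 0 allows up to 3 counts, which is 20.5 CPM in cyclic mare M, 6.28 CPM in cyclic mare U and 6.84 CPM in pregnant mare B. Over 9 luminal libraries ELOVL3 had 1 count in all, in cyclic mare C, and over 4 stromal libraries it had 1 count, in pregnant mare M. The ratio of pooled glandular to luminal counts was 184, with an exact counting interval of 32.6 to 7286, and to stromal counts 51.6 (9.16 to 2045).

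ABCA8 and ABCA9 were stromal transcripts. ABCA8 held 1081 (B) and 605 (M) CPM in cyclic stroma and 484 (M) and 811 (U) CPM in pregnant stroma. ABCA9 held 966 (B) and 2353 (M) CPM in cyclic stroma and 848 (M) and 1085 (U) CPM in pregnant stroma. For both genes the lowest stromal library lay above every epithelial library. The stromal mean of ABCA8 was 745 ± 261 (SD, n = 4) CPM, 18.9 times the luminal and 15.9 times the glandular mean. That of ABCA9 was 1313 ± 700.2 (SD, n = 4) CPM, 16.8 and 24.9 times those means. In glands ABCA8 was at 0 in cyclic mares C and M and at 22.8 to 100.4 CPM in the other 6 libraries, and ABCA9 was at 0 in pregnant mare U and at 13.6 to 81.3 CPM in the other 7.

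In luminal epithelium both transporters had low levels. Their means were lower in pregnant libraries, at 2.51 against 68.9 CPM for ABCA8 and 10.8 against 132 CPM for ABCA9. ABCA8 held 37.4 (B), 96.7 (C), 153 (J), 3.13 (M) and 54.5 (U) CPM in cyclic libraries and 5.12 (B), 2.36 (C), 0 (M) and 2.58 (U) CPM in pregnant ones. ABCA9 held 104 (B), 110.1 (C), 112 (J), 297 (M) and 38.0 (U) CPM in cyclic libraries and 5.12 (B), 7.07 (C), 10.3 (M) and 20.6 (U) CPM in pregnant ones. The ABCA9 ranges did not overlap, as for 4.81% of the 4344 genes tested, and those of ABCA8 met only through cyclic mare M. In mare U the pregnant to cyclic ratio of ABCA9 was 0.543, with a counting interval of 0.210 to 1.26. The log2 fold change was -3.59 ± 1.61 (SE) for ABCA9 and -4.60 ± 1.94 (SE) for ABCA8. Neither passed by edgeR's quasi-likelihood test, with adjusted p of 0.503 and 0.447, although DESeq2 called ABCA9 (0.0347) and gave 0.0639 for ABCA8. The pregnant values rested on 15 counts of ABCA9 and 4 of ABCA8 over 4 libraries, in which 3 counts correspond to 7.07 to 15.5 CPM.

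Markers of other cell types were also counted in the luminal libraries, and their sums overlapped between states for each list. The sum of 6 fibroblast markers was 756 to 2781 CPM in cyclic and 1085 to 7232 CPM in pregnant luminal libraries, with mean COL1A1 at 484 and 1762 CPM. COL1A2, VIM and LUM also had higher means in pregnancy (481 and 864, 473 and 519, 64.8 and 92.4 CPM). DCN went from a mean of 102 to 49.1 CPM and PDGFRA from 27.1 CPM to no count at all. The sum of 7 smooth muscle markers was 51.7 to 357 CPM in cyclic and 14.0 to 162 CPM in pregnant luminal libraries. Mean MYH11 was at 48.8 and 1.75 CPM and DES at 21.6 CPM and no count, and ACTA2 and MYLK were also lower in pregnancy. TAGLN and CNN1 were higher, with means of 10.3 and 22.4 CPM and of 0.553 and 7.51 CPM. Macrophage markers summed to 7.13 to 479 and 7.37 to 349 CPM, and endothelial markers to 3.05 to 142 and 7.37 to 45.4 CPM. Mean PECAM1 was at 14.6 and 3.47 CPM. CDH5, VWF and EGFL7 were also lower in pregnancy, and KDR was higher, at 12.4 and 19.5 CPM. Lymphocyte markers summed to 19.9 to 464 and 24.5 to 743 CPM. Means of CD3D (36.2 and 73.4 CPM), GZMA (13.0 and 139 CPM), CD3E and CD2 were higher in pregnancy. The pan-leukocyte gene PTPRC had means of 181 and 26.0 CPM. The part of captured stromal, muscle, vascular or immune cells in the luminal levels of ABCA8 and ABCA9 was not tested.

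**Figure D4:**
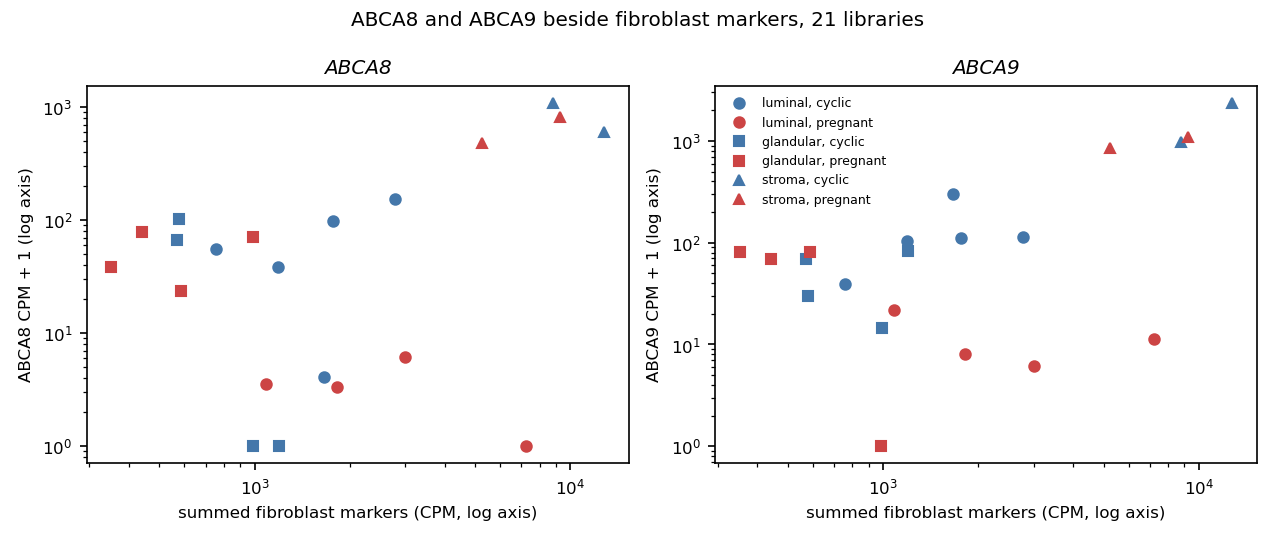
CPM + 1 of ABCA8 (left) and ABCA9 (right) in each of 21 libraries against the summed CPM of 6 fibroblast markers, both on log axes. Shape gives the compartment and colour the state. The marker sums carry no TMM scaling, unlike the ABCA8 and ABCA9 levels. Stromal libraries lie at the upper right, and the 4 pregnant luminal libraries lie at 20.6 CPM or less for both genes over marker sums of 1085 to 7232.

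The ABCA neighbours did not all share this pattern. In the RefSeq annotation of the horse assembly TB-T2T, ABCA5, ABCA10, ABCA6, ABCA9 and ABCA8 lie in a row. ABCA5 was a gene of the epithelia, with 20.6 to 1231 CPM in luminal, 27.3 to 235 CPM in glandular and 0 to 11.3 CPM in stromal libraries. ABCA6 and ABCA10 were at 0 in at least 1 library of each stromal group, with stromal maxima of 112 and 227 CPM. These transporters are similar in sequence, and the sources used here do not state how reads shared between paralogs were counted, so the split of reads between ABCA8, ABCA9 and their neighbours is uncertain. The same holds for VNN2 beside VNN1. UBXN10 lies within the PLA2G2C gene in that annotation and SLC18B1 overlaps the end of VNN2, and the library kit is not stated to keep strand. Mean UBXN10 was 20.3 CPM in cyclic glands and 74.2 CPM in cyclic luminal epithelium, the reverse of the PLA2G2C order. In pregnancy it was 19.3 CPM in glands and 3.70 CPM in luminal epithelium, the same order as PLA2G2C. SLC18B1 averaged 148 CPM in cyclic and 15.3 CPM in pregnant luminal epithelium. The part of shared reads in the PLA2G2C and VNN2 levels was not tested.

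In glandular epithelium no member changed detectably with pregnancy. Of 4816 genes tested 0.0623% were called by edgeR's quasi-likelihood test, and of 5 members tested 0 were called, also at an unadjusted p under 0.05, which 350 genes reached. DESeq2 called none of them either. The log2 fold change was -0.83 ± 0.78 (SE) for PLA2G2C, 1.05 ± 1.50 for ELOVL3, 0.53 ± 0.76 for VNN2, 0.30 ± 1.45 for ABCA8 and 0.28 ± 1.39 for ABCA9, each with an adjusted p of 0.999. For PLA2G2C the pregnant level was below the cyclic one in 3 of 4 mares, with cyclic to pregnant ratios of 5.70 (B), 2.01 (C), 1.76 (M) and 0.797 (U). The sign for ELOVL3 rested on pregnant mare U, without which the fold change was -0.81. GM2A and LIPG did not pass the low-count filter there. Ranges that do not overlap between states were found for 2.78% of the genes tested and for none of these 5 members.

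In stroma the pregnancy comparison had 2 libraries a state. None of 2212 genes was called by edgeR's quasi-likelihood test (0%), while 88 had an unadjusted p under 0.05, and DESeq2 called none as well. The 3 members tested gave log2 fold changes of -0.67 ± 1.18 (SE) for ABCA9, -0.38 ± 1.28 for ABCA8 and 0.62 ± 2.51 for VNN2, each with an adjusted p of 0.999, and none at an unadjusted p under 0.05. The ABCA8 value turned to 0.20 without cyclic mare B and that of VNN2 to -0.47 without pregnant mare U. Ranges that do not overlap between states, with 2 libraries each, were found for 31.2% of the genes tested and for none of the 3 members.

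**Figure D5:**
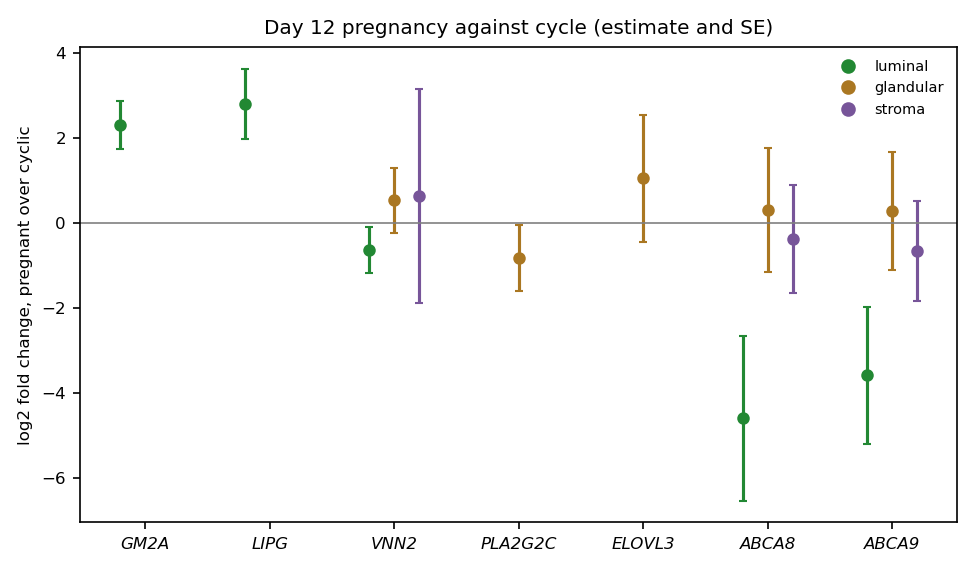
Log2 fold change of pregnant over cyclic libraries for each gene that passed the low-count filter in luminal epithelium (green), glandular epithelium (brown) and stroma (purple); bars are 1 standard error. GM2A and LIPG are at 2.30 and 2.80 in luminal epithelium, ABCA8 and ABCA9 at -4.60 and -3.59 there, and the glandular and stromal values lie between -0.83 and 1.05.

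Whether the pregnancy effect differed between the epithelia was tested directly, with the biopsy as a block over 16 libraries. Of 6884 genes 0.0145% were called by edgeR's quasi-likelihood test, and the median difference over all genes, glandular minus luminal, was 1.28 on the log2 scale. None of the 7 members was called, 0 had an unadjusted p under 0.05 where 381 genes did, and DESeq2 called none of the members. The difference of log2 fold changes was 5.38 ± 3.19 (SE) for ABCA8 and 3.51 ± 2.58 for ABCA9, and 1.51 ± 0.90 for VNN2, with adjusted p of 0.880, 0.888 and 0.880. For ELOVL3 it was 1.97 ± 3.32, with an adjusted p of 0.947 by the quasi-likelihood test. These values lay above the median of all genes. Below that median were GM2A at -1.11 ± 1.06, LIPG at -1.92 ± 1.87 and PLA2G2C at -1.44 ± 1.65, with adjusted p of 0.914, 0.915 and 0.924. The glandular side rested on 24 cyclic and 101 pregnant counts for GM2A and on 6 and 9 for LIPG. The luminal side of ELOVL3 rested on 1 count. With so few counts on one side, the test could hardly show a difference for these genes. A pregnancy effect limited to luminal epithelium was thus not shown for any of the 7 members.

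Among 9789 genes that passed a low-count filter over the 21 libraries, those most like each member were found by Pearson correlation of log2 CPM. The libraries differ in compartment, depth and mare, so these values describe a shared compartment first of all. GM2A was most like TRPV6, a calcium channel of absorptive epithelia (r = 0.949), then LIPG (0.909) and the glycosyltransferase gene GCNT1 (0.885). Within the 9 luminal libraries alone GM2A and LIPG correlated at 0.629. LIPG was most like the proton pump subunit gene ATP6V0A4 (0.927), whose mean was 189 CPM in luminal and 0.720 CPM in glandular epithelium.

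VNN2 was most like the pantothenate carrier SLC5A6 (r = 0.866 over 21 libraries, 0.817 within luminal and 0.32 within glandular epithelium). A gene without a matched symbol followed (0.856, with 0.660 within luminal and -0.322 within glandular epithelium). LOC100067649 came next (0.855, with 0.190 within luminal and 0.758 within glandular epithelium). This protein-coding gene lies between VNN1 and VNN2 in the TB-T2T annotation. It averaged 670 CPM in luminal, 145 CPM in glandular and 23.4 CPM in stromal libraries. PLA2G2C was most like SPP1, the gene of the secreted phosphoprotein osteopontin (0.932). ELOVL3 was most like a gene without a matched symbol (0.946). The acetylcholine receptor subunit gene CHRNA3 (0.923 over 21 libraries and 0.944 within the 8 glandular ones) and the peptide transporter gene SLC15A2 (0.890) followed. ABCA8 was most like CRTAP (0.874), a collagen-modifying cofactor, and the growth factor gene PTN (0.865), and ABCA9 was most like the glycolytic gene PKM (0.859). ABCA8 and ABCA9 correlated at 0.692 over 21 libraries, 0.543 within luminal, -0.09 within glandular and -0.15 within stromal libraries.

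Other genes of lipid handling were examined through 6 lists of 154 genes, of which 147 were found. With pregnancy none of them was called by edgeR's quasi-likelihood test: 0 of 55 tested in luminal epithelium, where 6 had an unadjusted p under 0.05, 0 of 54 in glands (1) and 0 of 16 in stroma (0). Nor was any of 68 called in the difference between the epithelia (6 unadjusted), where DESeq2 called PLIN2. DESeq2 called NUDT7, a peroxisomal coenzyme A hydrolase, in luminal epithelium and no listed gene in glands or stroma. The closest listed gene among the lipases was LIPA, the lysosomal acid lipase, at 51.2 to 677 CPM in pregnant and 0 to 91.3 CPM in cyclic luminal libraries (log2 fold change 2.98 ± 1.09, adjusted p 0.306). The 4 lipases tested in luminal epithelium had a median log2 fold change of 1.83, against -0.04 over all genes, and none was called. That was the highest median of the 6 lists, and those of the other lists ran from -0.49 to 0.14.

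Between luminal and glandular epithelium, 9 of 66 listed genes were called where 6.94% of 7174 genes were. ABCG2, an exporter of porphyrins and drugs, was higher in luminal epithelium (302 ± 319 against 5.42 ± 4.54 CPM, log2 difference 5.66 ± 0.79 SE, adjusted p 1.23e-10), as were SLC5A6 and PLTP, the phospholipid transfer protein (3.57 ± 1.22 SE, adjusted p 0.0498). Higher in glands were LRP2, an endocytic receptor that takes up lipoproteins (1071 ± 443 against 23.0 ± 19.5 CPM, log2 difference -5.51 ± 0.53 SE, adjusted p 4.23e-22), PLIN2, a lipid droplet coat protein (-3.59 ± 0.82, adjusted p 0.000498), PLA2G2A, ACSL3, ABCA13 and VNN1. PLA2G2A, a secreted phospholipase A2 of the same group as PLA2G2C, had a log2 difference of -1.99 ± 0.50 (adjusted p 0.0021), with 4.18 to 2632 CPM in glands and 5.12 to 474 CPM in luminal epithelium, so its ranges overlapped where those of PLA2G2C did not. On the list of fatty acid elongation and activation ACSL3, an acyl-CoA synthetase, was the 1 gene of 16 tested that edgeR's quasi-likelihood test called, and DESeq2 also called the elongase gene ELOVL5 and ACSL1, another acyl-CoA synthetase (adjusted p 0.102 and 0.343 by the quasi-likelihood test). Calls were lost for PLTP and ABCA13 without any single mare (adjusted p 0.0742 to 0.364 and 0.0714 to 0.226), for ACSL3 without mare B, C or U (0.0533 to 0.303) and for PLA2G2A without mare B or C (0.188 and 0.181), and without the mare block for PLTP (0.175) and ACSL3 (0.227).

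Against luminal epithelium, stroma differed in 1 of 40 listed genes where 1.74% of 3512 genes were called: APOD, a lipid-binding apolipoprotein, at 3063 ± 2099 against 166 ± 133 CPM (log2 difference 4.03 ± 0.97 SE, adjusted p 0.00414). Against glands 2 of 47 listed genes were called where 1.3% of 4830 were, APOD higher in stroma (3.23 ± 0.93, adjusted p 0.0422) and LRP2 lower (-4.60 ± 1.11, adjusted p 0.0105). These fits compare 3 mares, and these calls were lost without mare B or mare M (adjusted p 0.165 and 0.438 for APOD against luminal epithelium, 1.00 and 0.664 against glands, 0.601 and 0.126 for LRP2). No listed ABC transporter was called in either comparison by edgeR's quasi-likelihood test with mare as a block. Without the block that test called ABCA5 (adjusted p 0.00697) and SLC5A6 (0.0425), both lower in stroma than in luminal epithelium. Of the transporters DESeq2 called ABCA5 and ABCG2 against luminal epithelium and ABCA13 against glands.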

How the data were processed

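Whole-number read counts per gene for 21 libraries were deposited by the authors, with 2 tables of normalised signal (21 and 19 libraries) that the authors named CPM. Per the submitters' processing notes Trimmomatic 0.32.2 and HISAT2 2.0.3 were used. Not given in the sources used here: counting tool, genome build, annotation. Each deposited signal column equals the counts divided by one constant, with column sums of 701256 to 2193373 in the 21-library table. Some libraries, not identified in the labels, were amplified once more.

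Gene symbols came from RefSeq (assembly TB-T2T) by gene ID (85.9% of 24942 matched). Counts were tested with edgeR 4.0.16 in R 4.3.3 (TMM, minimum count 10 in the smallest group and 15 in total, quasi-likelihood test, two-sided, Benjamini-Hochberg over all genes tested, threshold 0.05). Each compartment's pregnancy comparison had no block. The difference between epithelia used the biopsy as a block, and compartments were compared on counts summed per mare with mare as a block. Alternatives used DESeq2 1.42.0, limma 3.58.1 on log2 of the deposited signal plus 1 or 10, other scalings and filters, and each library or mare left out. The same letter marks the same mare, which pairs libraries across states, while the correlation of same-mare deviations was -0.0141 to 0.0509. The scripts were tested on simulated data.

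The members and gene lists were chosen with earlier results of these data known, and a few listed genes are not reported here. Named among the listed genes are up to 4 called genes a list, by p, or the gene of lowest p where none was called, and further genes named were chosen after their values were seen. Depth sets the precision: 3 counts equal 1.70 to 20.5 CPM.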

Additional observations from a re-analysis of the deposited data

Results flagged for a closer look

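In 27 groups of 4 or 5 libraries, 5 held a library far from the others of its group, where chance alone gives about 1 in 20 for normally distributed values, a rate that does not apply to groups near 0 counts. LIPG in pregnant luminal epithelium was at 1166 CPM in mare U (452 counts) and at 384 CPM in the next library. PLA2G2C in cyclic luminal epithelium was at 83.9 CPM in mare J (45 counts) against 4.15 CPM in the next. ABCA9 in cyclic luminal epithelium was at 297 CPM in mare M (95 counts) against 112 CPM in the next. In pregnant glands ABCA9 had a count of 0 in mare U, where the next lowest library held 68.6 CPM, and that library also held the highest ELOVL3 level of all, 210.0 CPM. ELOVL3 in cyclic luminal epithelium was at 0.895 CPM in mare C, from 1 count, and at 0 in the other libraries. No cause of these values was tested.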

How the results depend on the processing

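Each of the 7 genes had its highest mean in the same compartment in all 8 alternatives run. In luminal pregnancy 1 member was called. With the mare as a replicate block it was 0, with DESeq2 2, with limma on the deposited signal plus 1 or plus 10 0, with a joint fit of 21 libraries 0, and with 1 library left out 0 to 2. Over all genes that count of 19 became 12 with the block, 83 with DESeq2, 12 without a low-count filter, 7 and 3 with limma, 1 in the joint fit and 2 to 37 with 1 library left out. Glandular calls over all genes were 3, but 0 with the block, DESeq2 or RLE factors, 34 without a filter, 7 in the joint fit, 1 and 0 with limma, 6 with robust dispersions and 0 to 28 with 1 library left out. Stromal calls were 0, but 2 without a filter, 3 in the joint fit and 0 to 2 with 1 library left out. Interaction calls were 1, but 78 with DESeq2 and 0 with robust dispersions. Robust dispersions and the deposited 19-library table were alternatives chosen after seeing the data.

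Signs that turned belong to values that passed no test, and the cause was not tested. In glands VNN2 was -0.013 with limma on the 19-library table, and -0.050 to 0.89 with 1 library left out. ABCA9 was -0.23 with the mare as a block, -0.62 and -0.013 with limma on the signal plus 1 and plus 10, -1.09 on the 19-library table, and -0.020 to 0.69 with 1 library left out. Leave-one-out ranges in glands were -0.81 to 2.28 for ELOVL3, -0.11 to 1.22 for ABCA8 and -0.15 to 2.62 for the listed gene HACD2. In stroma they were -0.47 to 1.44 for VNN2, -0.82 to 0.20 for ABCA8 and -3.50 to 2.87 for PLA2G2A. With limma on the signal plus 1 PLA2G2A was -0.30. The ELOVL3 interaction ran from -0.48 to 3.55. Of named genes, the block changed the calls of GM2A in luminal pregnancy, of VNN1, ACSL3 and PLTP between the epithelia, and of ABCA5 and SLC5A6 in stroma against luminal epithelium. No blocked fit was made in stroma, where 1 mare gave both states.

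Of listed genes 9 were called between the epithelia, but 5 with libraries not summed and the biopsy as a block, 14 with DESeq2 and 3 to 8 with 1 mare left out. Over all genes that count of 498 became 247 with the biopsy as a block, 1009 with DESeq2 and 230 to 411 with 1 mare left out. Against luminal epithelium 1 was called in stroma, but 4 with no replicate block, 7 with DESeq2 and 0 to 1 with 1 mare left out (61 over all genes, then 34 with the biopsy as a block, 474 with DESeq2 and 18 to 36). Against glands 2 were called, but 10 with DESeq2 and 0 to 2 with 1 mare left out (63 over all genes, then 99 with no replicate block, 526 with DESeq2 and 0 to 45).

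Depth limits what the counts show: 3 counts are 7.07 to 15.5 CPM in pregnant luminal libraries, so the ABCA8 and ABCA9 levels there lie near what 3 reads are worth, and ABCA8 did not pass the low-count filter in 5 of 19 alternatives.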
